A study of Mus musculus with 12 samples.

Results

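The heat shock response genes are 10 genes picked by name: the transcription factor Hsf1, the stress-inducible HSP70 pair Hspa1a and Hspa1b, the constitutive HSP70 Hspa8, the HSP110 Hsph1, the J-domain protein Dnajb1, the HSP90 pair Hsp90aa1 and Hsp90ab1, the HSP70 regulator Bag3 and the endoplasmic reticulum (ER) HSP70 Hspa5. They were 10 of 48795 genes in the count data, and all 10 passed the filter on low counts that left 11228 genes to be tested. RNA was sequenced from bone marrow-derived macrophages (BMDMs), which are macrophages grown in culture from mouse bone marrow cells with M-CSF. The 12 libraries form 6 groups of 2. WT and Acod1-/- BMDMs received vehicle (Control), particulate matter (PM, an urban dust) at 20 μg/cm2 for 24 hours, or 4-octyl itaconate (OI, a cell-permeable form of itaconate) at 0.25 mM for 2 hours followed by PM (OI+PM). Acod1 encodes the enzyme that makes itaconate. OI was therefore examined only in cells that also received PM, and none of the 12 libraries received OI alone. The labels give the strain of the WT cells as C57BL/6, while the study's methods name the substrain C57BL/6NJ, on which the Acod1 mutant line was made. No label says whether the 2 libraries of a group came from separate animals, so the p-values measure the spread between these libraries, which may be technical.

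Heat shock proteins are chaperones that bind unfolded or newly made proteins, keep them from clumping and help them to fold. When proteins misfold in the cytosol or nucleus, HSF1 is freed from the chaperones that hold it inactive, binds heat shock elements in the promoters of these genes and raises their transcription. The HSP70 cycle depends on J-domain proteins, which deliver substrates, and on nucleotide exchange factors such as HSP110 and BAG proteins, which let substrates go, and HSP90 receives many clients from HSP70. Misfolding in the ER is sensed by a separate pathway, the unfolded protein response, whose best known target is Hspa5, the gene of the chaperone BiP. In macrophages, heat shock proteins are known to be made in response to heat, heavy metals, oxidants and electrophilic compounds.

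Promoter sequence from RefSeq (GRCm38.p6) was read for 6 of the 10 genes, Hspa1a, Hspa1b, Hsph1, Dnajb1, Hspa5 and Bag3, over 250 bases before and 50 bases after each start, with 2 starts each for Hsph1 and Dnajb1. The core of a heat shock element was searched as a pair of units facing each other, GAANNTTC or TTCNNGAA, on both strands. It was found in the windows of Hspa1a, Hspa1b, Hsph1 and Bag3 and not in those of Dnajb1 and Hspa5, and 15.1% of all 32851 promoter windows hold it. In Hspa1a and Hspa1b the match began 104 bases before the start. The upstream sequences of this pair were identical at 247 of 250 bases (98.8%), and 120 bases around the match were the same in both, at chr17:34972187-34972306 for Hspa1a and chr17:34959269-34959388 for Hspa1b, minus strand. They are shown because these are the genes with the largest changes among the 10, with the matched pair in capitals.
Hspa1a and Hspa1b: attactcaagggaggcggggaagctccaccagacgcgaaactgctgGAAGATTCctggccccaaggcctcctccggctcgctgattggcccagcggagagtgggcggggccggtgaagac
Of the 6 genes only Hsph1 held a heat shock element of 3 units, once and in both of its overlapping windows, a form that 0.603% of all windows hold. It lies just after the start, at chr5:149636282-149636306 on the minus strand, and its letters are in capitals.
Hsph1: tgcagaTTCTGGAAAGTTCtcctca
The single match of Bag3 lies after its start, at chr7:128523608-128523632 on the plus strand.
Bag3: ttctctggatgggaccaGAAGTTTC
The core of the antioxidant response element, TGACNNNGC on either strand, was found in both windows of Hsph1 (2 matches) and in 1 of the 2 windows of Dnajb1 (1 match), against 12.4% of all windows. A match describes the letters only and says nothing of whether a factor binds there.

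The libraries held between 33616577 and 36817898 counts. All 8 macrophage markers, among them Adgre1 and Csf1r, were expressed, and their summed normalized CPM (CPM, read counts scaled to a common library size, here by TMM) was between 14278 and 27338, of which Lyz2 gave 63.3% to 79.2%. Without Lyz2 the sum was between 4505 and 6551. In both genotypes 7 of the 8 markers were lower in both OI+PM libraries than in both PM libraries, among them Fcgr1 (105 to 108 in WT PM and 27.8 to 28.3 in WT OI+PM libraries) and Adgre1 (1415 to 1475 and 880 to 984). The other, Cd68, was higher in WT OI+PM libraries (1709 to 1859 against 1453 to 1634) and overlapped in Acod1-/- libraries. The summed level of T cell, B cell, dendritic cell, fibroblast, mast cell and erythroid markers stayed at or below 4.04 normalized CPM in every library. The 6 neutrophil markers summed to 5.37 to 5.80 normalized CPM in the Control groups, 11.5 to 17.8 in the PM groups and 29.6 to 61.3 in the OI+PM groups, nearly all of it from S100a8, while the granulocyte genes Ly6g, Mpo and Elane were at or below 0.19 in every library. Both the macrophage and the neutrophil sums therefore moved with treatment, and their part in the results was not tested. Acod1, the gene mutated in the Acod1-/- line, was at 181 and 170 normalized CPM in WT and at 108 and 94.1 in Acod1-/- libraries after PM. Its log2 difference from WT was -0.81 in Control, -0.80 after PM and -0.81 with OI+PM (edgeR adjusted p = 0.492, 0.0807 and 0.0509). Whether the Acod1 reads in Acod1-/- libraries come from a mutant transcript was not tested, so its level alone does not decide the labels. In a separate measurement, the paper detected itaconate after PM in WT BMDMs and none in Acod1-/- BMDMs. In bulk RNA, fewer cells of a type cannot be told apart from less RNA per cell.

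Per kilobase of exon, Hsp90ab1 and Hspa5 had the highest levels of the 10 genes in each group. Hsp90ab1 was the higher, with libraries that overlapped those of Hspa5 in WT PM cells and in no other group. In WT Control BMDMs, Hsp90ab1 was at 378 ± 4.52 (SD, n = 2) normalized CPM per kilobase and Hspa5 at 282 ± 2.9. Hspa8 followed at 59.7 ± 0.751, then Bag3 at 25.8 ± 0.670 and Hsp90aa1 at 19.7 ± 0.696. Dnajb1 (11.5 ± 0.0824) and Hsph1 (11 ± 0.178) lay next to each other, and their libraries overlapped in Acod1-/- Control cells but not in WT Control cells. Hsf1 was at 2.80 ± 0.0517, and Hspa1b (0.260 ± 0.0305) and Hspa1a (0.234 ± 0.0515), whose WT Control libraries overlapped, were at the bottom. With PM in WT cells Hspa1b was at 3.17 ± 0.125 normalized CPM per kilobase and overlapped Hsf1 at 3.05 ± 0.356, while Hspa1a, at 2.52 ± 0.194, was still below Hsf1. In Acod1-/- PM cells both Hspa1a (4.01 ± 0.250) and Hspa1b (3.69 ± 0.190) were above Hsf1 (2.91 ± 0.141). With OI+PM in WT cells both Hspa1a (7.49 ± 2.06) and Hspa1b (7.88 ± 2.31) were above Hsf1 (4.02 ± 0.0298). Hsph1 was below Dnajb1 in WT Control cells and above it, at 27.5 ± 0.780 against 17.3 ± 2.59, in WT OI+PM cells. The 10 genes together made up 2863 to 2869 normalized CPM in the WT Control libraries and 4319 to 4914 in the WT OI+PM libraries, and Hsp90ab1 and Hspa5 gave between 78.2% and 83.6% of that sum in every library.

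**Figure D1:**
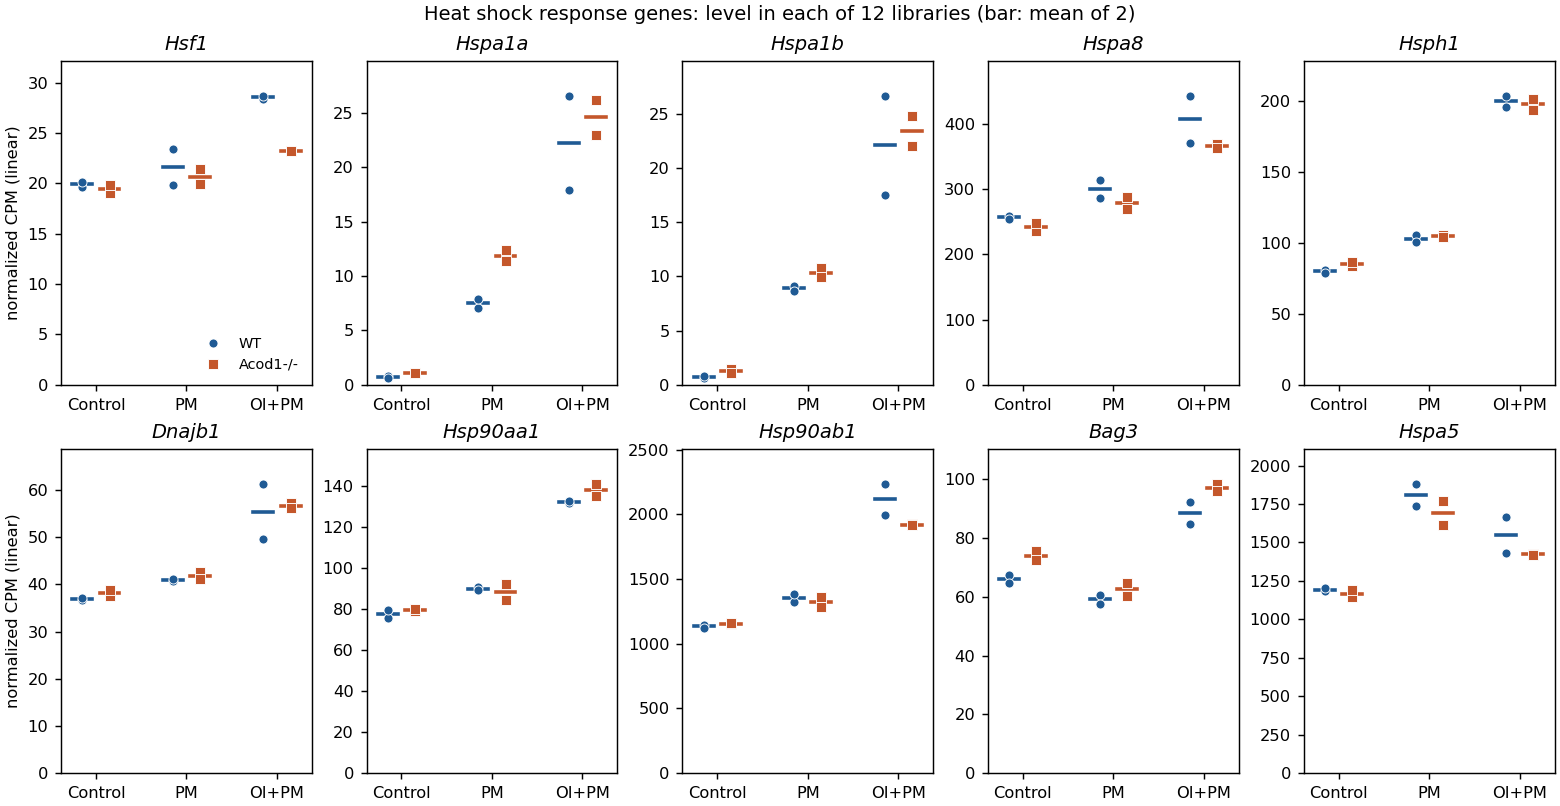
Level of each heat shock response gene in the 12 libraries, as normalized CPM on a linear axis from 0, by treatment, with circles for WT, squares for Acod1-/- and bars for the mean of 2 libraries. Hspa1a and Hspa1b are near 1 in Control libraries and between 17.5 and 26.7 with OI+PM, while Hspa5 is highest with PM and lower with OI+PM.

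Whether PM alone changes heat shock genes was asked by comparing PM with Control within each genotype. In WT BMDMs 6 of the 10 genes rose: Hspa1a, Hspa1b, Hspa5, Hsph1, Hsp90ab1 and Hsp90aa1. None of the 10 fell by edgeR with TMM scaling alone or by DESeq2, but Bag3 was lower at an unadjusted p under 0.05 and fell with total count scaling or a correction for exonic length. Among all genes tested, 12.6% rose and 12.2% fell. In Acod1-/- BMDMs 5 of the 10 rose (Hspa1a, Hspa1b, Hspa5, Hsph1 and Hsp90ab1) and Bag3 fell, where 12% of all genes rose and 11.9% fell. The median log2 fold change of the 10 genes was 0.24 in WT and 0.20 in Acod1-/- cells, against 0.01 and 0.00 over all genes tested. "Rose" and "fell" stand for an adjusted p of 0.05 or less in the quasi-likelihood test of edgeR, adjusted over the 11228 genes by the Benjamini-Hochberg method.

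Among the 10 genes, the inducible HSP70 pair showed the largest change with PM. Hspa1a was at 0.802 and 0.585 normalized CPM in the WT Control libraries and at 7.09 and 7.90 in the WT PM libraries. In Acod1-/- cells it was at 1.09 and 1.11 in Control and at 12.4 and 11.4 after PM. All PM libraries were above all Control libraries, and the log2 fold change was 3.43 ± 0.255 (SE) in WT and 3.43 ± 0.230 in Acod1-/- cells, which is 10.8-fold in each (edgeR adjusted p = 1.07e-05 and 4.28e-06). Hspa1b, the neighbouring copy on chromosome 17, was at 0.668 and 0.789 normalized CPM in WT Control libraries and at 9.14 and 8.65 in WT PM libraries. Acod1-/- libraries were at 1.5 and 1.08 in Control and at 10.7 and 9.98 with PM. Its groups did not overlap either, and it rose 12.1-fold in WT (log2 3.60 ± 0.262) and 7.98-fold in Acod1-/- cells (log2 3.0 ± 0.238). These were the only members that at least doubled with PM, a change shown by 3.02% of all genes tested in WT and 3.19% in Acod1-/- cells. The Control levels rest on 23 to 55 counts per library. Both genes passed the filter on low counts only through the PM and OI+PM libraries, where they are high. Of the 50-base stretches of Hspa1a and Hspa1b transcripts, 66.3% and 62.3% also occur in another gene, mainly in each other, and the handling of such reads is not given in the sources used here, so the split between the copies is uncertain. Hspa1a also overlaps Gm20481 on the opposite strand over 564 exonic bases, and whether reads were counted by strand is not given either. With both copies summed, the log2 fold change with PM was 3.52 in WT and 3.21 in Acod1-/- cells.

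The other cytosolic chaperones changed at most 1.29-fold with PM. Hsph1, an HSP110 that acts as a nucleotide exchange factor of HSP70, was at 80.9 and 79.1 normalized CPM in WT Control and at 106 and 101 in WT PM libraries, a log2 fold change of 0.37 ± 0.0584 (adjusted p = 0.00155). In Acod1-/- cells it went from 83.5 and 86.4 to 105 and 104, a log2 fold change of 0.30 ± 0.0583 (adjusted p = 0.00424, and 0.0538 without replicate 1 of Acod1-/- Control). PM and Control libraries did not overlap in either genotype. Hsp90ab1, the constitutive HSP90, was at 1144 and 1125 normalized CPM in WT Control and at 1323 and 1384 in WT PM libraries, and in Acod1-/- cells at 1149 and 1158, then 1359 and 1286. Its log2 fold change was 0.25 ± 0.0630 in WT (adjusted p = 0.0166) and 0.20 ± 0.0630 in Acod1-/- cells (adjusted p = 0.0474), and leaving out any 1 of the 4 Acod1-/- libraries took the latter above 0.05. In WT the call was lost without either Control library or without replicate 2 of PM. For Hsp90aa1, the inducible HSP90, WT libraries were at 75.7 and 79.6 in Control and at 90.8 and 89.0 with PM, a log2 fold change of 0.21 ± 0.0646 (adjusted p = 0.0396). That call was lost when any 1 of the 4 WT libraries was left out and in 6 other alternatives (adjusted p between 0.0518 and 0.205), among them RLE scaling and the length correction. With Acod1-/- libraries at 78.8 and 80.1 in Control and 92.3 and 84.4 with PM, the log2 fold change was 0.15 ± 0.0646 (adjusted p = 0.115, and 0.0358 with only these groups fitted).

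Hsf1, Hspa8 and Dnajb1 did not pass the test with PM in either genotype in the fit of all 12 libraries. Hsf1 was at 19.6 and 20.2 normalized CPM in WT Control and at 19.9 and 23.4 in WT PM libraries, which overlapped, and at 19.0 and 19.9, then 21.4 and 20.0 in Acod1-/- cells. Its log2 fold change had a 95% interval of -0.07 to 0.32 in WT and of -0.11 to 0.28 in Acod1-/- cells. Hspa8, the HSP70 that cells make without stress, was at 259 and 254 in WT Control and at 287 and 314 in WT PM libraries (log2 0.23 ± 0.0852, adjusted p = 0.0786, and 0.0319 with a replicate block of its own in each genotype). In Acod1-/- cells its log2 fold change was 0.21 with an adjusted p of 0.00460 when only the Acod1-/- Control and PM libraries were fitted, where 50.4% of all genes were called. Dnajb1, the J-domain partner of inducible HSP70, was at 36.7 and 37.0, then 40.6 and 41.1 (log2 0.15 ± 0.0910, adjusted p = 0.239). The PM libraries of Hspa8 and Dnajb1 were all above the Control libraries in both genotypes, although the difference did not pass the test.

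Bag3 and Hspa5 departed from this in opposite ways. Bag3, a co-chaperone that links HSP70 to autophagy, was at 67.3 and 64.9 normalized CPM in WT Control and at 60.6 and 57.7 in WT PM libraries (log2 -0.16 ± 0.0699, adjusted p = 0.116, and 0.0235 with total count scaling, 0.0152 with the length correction and 0.0114 with the length correction and replicate block). Acod1-/- libraries were at 75.5 and 72.4, then 60.4 and 64.7 (log2 -0.24 ± 0.0698, adjusted p = 0.0315), so PM libraries were below Control libraries in both. The Acod1-/- call was lost when any 1 of its 4 libraries was left out, with adjusted p between 0.0564 and 0.209. Hspa5 was at 1185 and 1202 normalized CPM in WT Control and at 1738 and 1881 in WT PM libraries, and in Acod1-/- cells at 1144 and 1188, then 1767 and 1615. It rose 1.52-fold in WT (log2 0.60 ± 0.0787, adjusted p = 0.00044) and 1.45-fold in Acod1-/- cells (log2 0.54 ± 0.0787, adjusted p = 0.000811), the largest change after the inducible pair.

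**Figure D2:**
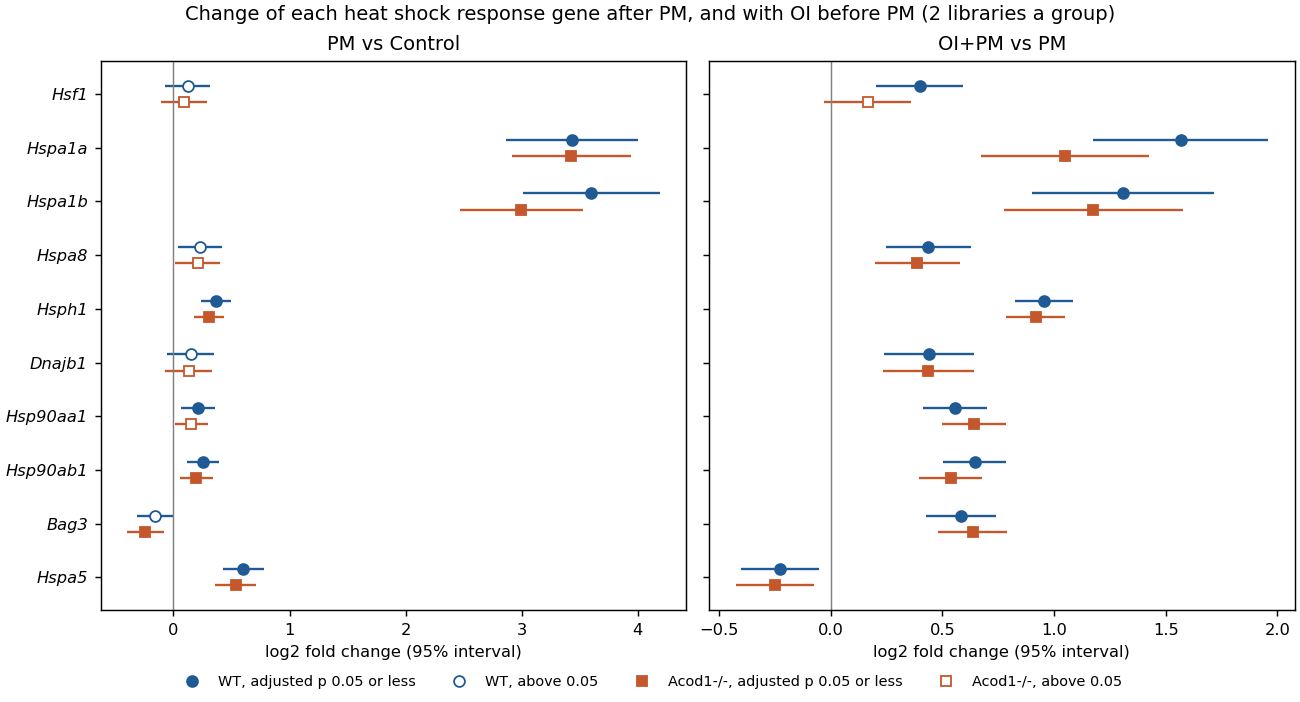
Log2 fold change of each heat shock response gene for PM against Control (left) and OI+PM against PM (right), with 95% intervals from the edgeR fit, in WT (circles) and Acod1-/- (squares); filled symbols have an adjusted p of 0.05 or less. The left panel is led by Hspa1a and Hspa1b at 3.0 to 3.60, and in the right panel Hspa5 is the only gene below 0.

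OI before PM was compared with PM alone to see what the itaconate derivative added. These comparisons share the PM libraries with those above, so their values are given side by side and no relation between them is drawn. In WT BMDMs 9 of the 10 genes rose with OI and Hspa5 fell, where 21.3% of all genes rose and 22.6% fell. In Acod1-/- BMDMs 8 of the 10 rose, Hspa5 fell and Hsf1 did not pass the test, where 13.9% of all genes rose and 20.6% fell. The median log2 fold change of the 10 genes was 0.57 in WT and 0.59 in Acod1-/- cells, against 0.02 and 0.00 over all genes. Only Hspa1a and Hspa1b at least doubled, in both genotypes, a change shown by 2.30% of all genes in WT and 1.85% in Acod1-/- cells. Leaving out 1 library took Hspa1b in WT (log2 0.98 without replicate 2 of OI+PM) and Hspa1a in Acod1-/- cells (0.95 without replicate 2 of OI+PM and 0.99 without replicate 2 of PM) just under that size. The log2 fold change of Hsph1 in WT lay between 0.824 and 1.005 over the alternatives, so it reached that size at its highest. With only the WT PM and WT OI+PM libraries in the fit, 6 of the 10 rose, and Hsf1, Hspa8, Dnajb1 and Hspa5 kept their directions with adjusted p between 0.0835 and 0.206. In that fit 5.33% of all genes rose and 11.9% fell.

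Hspa1a was at 17.9 and 26.6 normalized CPM in the WT OI+PM libraries, against 7.09 and 7.90 with PM alone, a 2.96-fold change (log2 1.57 ± 0.175, adjusted p = 5.66e-05). In Acod1-/- cells it was at 22.9 and 26.2 against 12.4 and 11.4, a 2.07-fold change (log2 1.05 ± 0.168, adjusted p = 0.000763). Hspa1b rose 2.48-fold in WT, to 17.5 and 26.7, and 2.26-fold in Acod1-/- cells, to 22.0 and 24.8 (adjusted p = 0.000256 and 0.000539). The WT OI+PM libraries of both copies were far apart, but the lower one was still above every PM library. Without replicate 1 of WT OI+PM the log2 fold change of Hspa1a was 1.83, and without replicate 2 it was 1.26. The WT OI+PM replicates differed more than those of any other group, with a chi-square per degree of freedom of 58.5 over genes against 2.61 to 27.3 in the other groups, and their difference across genes followed exonic length (Spearman 0.61 over 11208 genes, given as a description). The same measure was 0.60 in WT PM, 0.28 in WT Control, 0.29 in Acod1-/- OI+PM, -0.08 in Acod1-/- Control and -0.36 in Acod1-/- PM. With a correction for exonic length, with a replicate block, and with both, 9 of the 10 genes rose with OI in WT and Hspa5 fell, as without them.

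Hsph1 had the smallest standard error of the 10 genes. It was at 195.9 and 203.9 normalized CPM in WT OI+PM and at 201.7 and 194.1 in Acod1-/- OI+PM libraries, all of them above the 101 to 106 of the PM libraries. Its log2 fold change was 0.95 ± 0.0585 in WT (1.94-fold, adjusted p = 6.8e-07) and 0.92 ± 0.0584 in Acod1-/- cells (1.89-fold, adjusted p = 9.38e-07). Dnajb1 was at 49.6 and 61.3 in WT and at 57.2 and 56.2 in Acod1-/- OI+PM libraries, with a log2 fold change of 0.44 in each (adjusted p = 0.00326 and 0.00378). Hspa8 reached 370 and 443 in WT and 368 and 362 in Acod1-/- cells, with log2 fold changes of 0.44 ± 0.0852 and 0.39 ± 0.0852 (adjusted p = 0.00236 and 0.00534, the latter 0.0521 without replicate 2 of Acod1-/- PM). For Hspa8, 39.4% of its 50-base stretches occur in another gene, mainly the pseudogene Gm15459, and it hosts the small nucleolar RNA genes Snord14c, Snord14d and Snord14e, so its count is less certain than those of Hsph1 and Bag3, which share none.

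The HSP90 pair rose by similar amounts. Hsp90ab1 was at 1995 and 2236 normalized CPM in WT and at 1926 and 1915 in Acod1-/- OI+PM libraries, with log2 fold changes of 0.64 ± 0.0632 and 0.54 ± 0.0631 against PM. Hsp90aa1 was at 132 and 133 in WT and at 141 and 135 in Acod1-/- OI+PM libraries, with log2 fold changes of 0.56 ± 0.0645 and 0.64 ± 0.0646. All OI+PM libraries were above all PM libraries for both genes. The pseudogene Gm12346 and others share 47.5% of the 50-base stretches of Hsp90aa1, against 3.44% for Hsp90ab1, so the count of the inducible form is the less certain one. Bag3, which had been lower with PM, was at 84.7 and 92.5 in WT and at 98.5 and 95.9 in Acod1-/- OI+PM libraries, above both the PM and the Control libraries, with log2 fold changes of 0.58 ± 0.0700 and 0.64 ± 0.0698 against PM. Hsf1 itself was at 28.4 and 28.7 in WT OI+PM libraries, above the 19.9 and 23.4 with PM (log2 0.40 ± 0.0866, adjusted p = 0.00434). In Acod1-/- cells it was at 23.2 in both OI+PM libraries against 21.4 and 20.0 (log2 0.17 ± 0.0872, adjusted p = 0.176), so the groups did not overlap there either although the difference did not pass the test.

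Hspa5 was the member that fell. It was at 1428 and 1663 normalized CPM in the WT OI+PM libraries, against 1738 and 1881 with PM, and at 1426 and 1419 in Acod1-/- cells against 1767 and 1615. It fell to 0.854 of the PM level in WT (log2 -0.23 ± 0.0785, adjusted p = 0.0395) and to 0.841 in Acod1-/- cells (log2 -0.25 ± 0.0785, adjusted p = 0.0328). The groups did not overlap, but the WT call was lost without replicate 2 of WT PM or replicate 1 of WT OI+PM (adjusted p = 0.168 and 0.153), and the Acod1-/- call without replicate 1 of Acod1-/- PM or either Acod1-/- OI+PM library.

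Against Control, OI+PM raised all 10 genes in both genotypes, where 33.6% of all genes rose in WT and 22.7% in Acod1-/- cells. Hspa1a was 31.9-fold and Hspa1b 30.0-fold higher in WT (log2 5.0 ± 0.239 and 4.91 ± 0.249), and 22.2-fold and 18-fold in Acod1-/- cells (log2 4.47 ± 0.223 and 4.17 ± 0.229). Hsph1 was the third gene that at least doubled, by 2.5-fold in WT and 2.33-fold in Acod1-/- cells, a size of increase shown by 5.38% and 3.88% of all genes. The smallest increases were those of Hspa5 in WT (log2 0.37 ± 0.0786) and Hsf1 in Acod1-/- cells (log2 0.26 ± 0.0873, adjusted p = 0.0339). That Hsf1 call was lost when any 1 of the 4 Acod1-/- libraries of this comparison was left out. It was also lost with total count scaling (adjusted p = 0.311) and with the filter of CPM above 1.5 in all 12 libraries. Hspa5 lost its Acod1-/- call without replicate 1 of Control or without either OI+PM library, and its calls in both genotypes with total count scaling (adjusted p = 0.0542 and 0.0824). Bag3 lost its WT call with the length correction (adjusted p = 0.0533). These comparisons share their libraries with the ones above.

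The genotypes were compared within each treatment to ask whether cells labelled Acod1-/- differ in these genes. None of the 10 genes passed edgeR's test in Control, PM or OI+PM cells, where 1.83%, 2.40% and 6.96% of all genes did. At an unadjusted p under 0.05 there were 2, 1 and 1 of the 10, and DESeq2 called 0, 1 and 1, with 2.73%, 3.87% and 11.8% of all genes. After PM, the length correction (5.25% of all genes called) and a replicate block of its own in each genotype (4.45%) also called Hspa1a. With OI+PM they called Hsf1, where 15.4% and 23.9% of all genes were called, so 1 of the 10 is at or below the share of all genes. Bag3 was at 75.5 and 72.4 normalized CPM in Acod1-/- Control against 67.3 and 64.9 in WT Control libraries (log2 0.16, 95% interval 0.01 to 0.32, adjusted p = 0.45). With only the Control libraries fitted, 20.6% of all genes were called, among them Bag3 (adjusted p = 0.00601), Hspa1b (0.0235) and Hspa8 (log2 -0.10, 0.0325). The inducible pair was higher in both Acod1-/- Control libraries, by 0.67 (95% interval -0.09 to 1.43) for Hspa1a and 0.82 (0.06 to 1.59) for Hspa1b on the log2 scale, at about 1 normalized CPM. After PM, Hspa1a was at 12.4 and 11.4 in Acod1-/- against 7.09 and 7.90 in WT libraries, a log2 difference of 0.67 ± 0.178 (95% interval 0.27 to 1.06, edgeR adjusted p = 0.0967, 0.0219 by DESeq2, 0.0118 with the length correction and 0.0273 with a block in each genotype). With both copies summed it was 0.44 (adjusted p = 0.26). Hspa1b, which shares most of its sequence, was at 10.7 and 9.98 against 9.14 and 8.65 (log2 0.22, 95% interval -0.20 to 0.64).

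With OI+PM, Hsf1 was at 23.2 in both Acod1-/- libraries against 28.4 and 28.7 in WT libraries, a log2 difference of -0.30 ± 0.0865 (95% interval -0.49 to -0.11, edgeR adjusted p = 0.0659, 0.0442 by DESeq2, 0.0358 with the length correction and 0.0291 with a block in each genotype). The other 9 genes differed by between -0.15 and 0.15 on the log2 scale. Replicate 1 of WT OI+PM mattered here: without it 4 of the 10 genes were called lower in Acod1-/- cells, Hsf1 (log2 -0.31), Hspa8 (-0.28), Hspa5 (-0.23) and Hsp90ab1 (-0.22), but 28.3% of all genes were then called lower and 20.3% higher. Without any other library of the comparison none of the 10 was called. Whether PM or OI acted differently in the genotypes was tested as an interaction. No gene of the 10, and 0% of all genes, passed for the effect of PM or for that of OI, none of the 10 had an unadjusted p under 0.05 in either, and DESeq2 called none of the 10. The interaction of largest size for OI was that of Hspa1a (log2 -0.52, 95% interval -1.06 to 0.02, adjusted p = 0.779), and for PM that of Hspa1b (log2 -0.60, 95% interval -1.48 to 0.27). Without replicate 1 of WT OI+PM the OI interaction of Hspa1a was -0.78 (adjusted p = 0.0373), in a fit where 4.68% of all genes passed for that interaction. For Hsph1 the interval of the interaction was -0.25 to 0.12 for PM and -0.22 to 0.15 for OI.

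**Figure D3:**
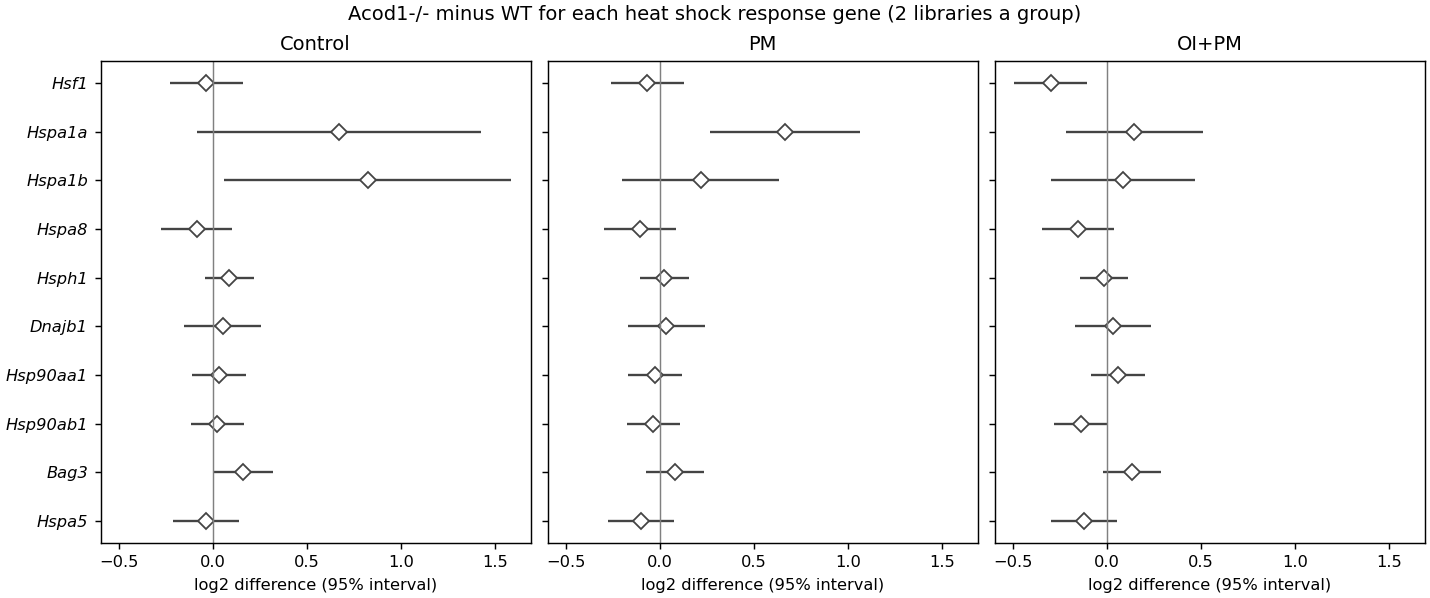
Log2 difference of libraries labelled Acod1-/- from WT libraries for each heat shock response gene in Control, PM and OI+PM cells, with 95% intervals from the edgeR fit. No gene has an adjusted p of 0.05 or less, and the intervals are widest for Hspa1a and Hspa1b in Control cells, where counts are low.

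Other genes of the chaperone network were read from 8 lists of genes that work with the 10. The list of ER chaperones and stress genes, where Hspa5 belongs by function, moved most with PM. Of its 20 tested genes 15 rose and 1 fell in each genotype, with a median log2 fold change of 0.51 in WT and 0.40 in Acod1-/- cells, where 12.6% and 12% of all genes rose. Over the alternatives 12 to 15 rose in WT and 9 to 15 in Acod1-/- cells, the lowest without replicate 1 of Acod1-/- Control. The gene that fell was Atf6, which encodes an ER stress sensor and was named after its values were seen (log2 -0.43 in WT and -0.44 in Acod1-/- cells). With OI before PM, 9 of the 20 fell and 2 rose in WT, and 5 fell and 1 rose in Acod1-/- cells (medians -0.19 and -0.11). Of all genes 22.6% and 20.6% fell, so the share that fell in Acod1-/- cells was near that of all genes, and it was between 3 and 9 of the 20 over the alternatives. Sdf2l1, a partner of BiP, was at 76.1 and 83.3 normalized CPM in WT Control, 125 and 154 in WT PM and 66.0 and 79.7 in WT OI+PM libraries. It rose with PM by 0.81 in WT and 0.72 in Acod1-/- cells and fell with OI by 0.94 and 0.76 on the log2 scale. Pdia4, an ER disulfide isomerase, rose by 0.63 and 0.61 with PM and fell by 0.51 and 0.43 with OI, and the ER chaperone gene Calr rose by 0.76 and 0.60 and fell by 0.37 and 0.25. Sdf2l1, Pdia4 and Calr were picked by their change with OI. Their changes with PM and with OI use the same PM libraries, so no relation between them is drawn. The number of the 20 that fell with OI in WT was between 2 and 14 over the alternatives, the lowest with only WT PM and WT OI+PM libraries in the fit.

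Calls among partners of cytosolic HSP70 and HSP90 were counted for OI and for PM, and no test compared these counts. Of all genes, 43.9% passed the test with OI and 24.8% with PM in WT, and 34.6% and 23.9% in Acod1-/- cells. With only the compared groups fitted, the WT shares were 17.3% with OI and 23.1% with PM. Of 10 J-domain genes tested, 6 rose with OI in WT and 5 in Acod1-/- cells, where 21.3% and 13.9% of all genes rose. With PM 1 rose (Dnaja1, named after its values were seen) and 1 fell in WT, and 1 fell in Acod1-/- cells. Of all genes, 12.6% rose and 12.2% fell with PM in WT, and 12% and 11.9% in Acod1-/- cells. These PM counts were therefore near the shares of all genes. Dnajb4, a close relative of Dnajb1, was the J-domain gene that fell with PM. It was at 89.0 and 89.2 normalized CPM in WT Control, 59.5 and 57.0 in WT PM and 126 and 130 in WT OI+PM libraries, a log2 fall of 0.61 with PM (adjusted p = 4.27e-05) and an increase of 1.13 ± 0.0564 with OI (adjusted p = 1.51e-07). In Acod1-/- cells it fell by 0.91 with PM and rose by 1.18 with OI. The changes with PM and with OI use the same PM libraries, so no relation between them is drawn. In Control cells Dnajb4 was higher in Acod1-/- than in WT (log2 0.39 ± 0.0555, adjusted p = 0.0062), the only gene of this list that edgeR called between genotypes. Dnajb2 rose with OI by 1.29 and 1.03, and Dnajc2, a ribosome-associated J-protein, by 0.41 and 0.35.

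Of 13 HSP90 co-chaperone genes, 6 rose and 1 fell with OI in each genotype, where 21.3% (WT) and 13.9% (Acod1-/-) of all genes rose. The prolyl isomerase genes Ppid and Fkbp4 rose by 0.53 and 0.52 in WT and by 0.60 and 0.43 in Acod1-/- cells, while Fkbp5, which is best known as a glucocorticoid target, fell by 0.47 and 0.67. With PM, 2 of the 13 rose and 1 fell in WT, where 12.6% of all genes rose and 12.2% fell. In Acod1-/- cells 1 fell with PM, where 11.9% of all genes fell. The median log2 fold change of the 13 was 0.20 with PM and 0.19 with OI in WT, and 0.04 and 0.20 in Acod1-/- cells. Of 11 other genes for cytosolic HSP70, HSP110 and exchange factors, none passed edgeR's test with PM in WT (2 at an unadjusted p under 0.05 and 1 by DESeq2) or in Acod1-/- cells (1 and 0). With OI, 3 rose and 1 fell in WT, and 2 rose and 1 fell in Acod1-/- cells, against 21.3% risen and 22.6% fallen of all genes in WT and 13.9% and 20.6% in Acod1-/- cells. Hspa4l, a relative of Hsph1, rose by 0.65 and 0.55 and Hspa14 by 0.47 and 0.29, and Hspa2 fell by 0.66 and 0.51. Among the 3 other HSF genes and regulators tested, Hsf2 rose with OI by 0.22 and 0.35 (in WT the adjusted p was 0.437 with total count scaling) and Hsf4, at 1.57 to 3.33 normalized CPM as group means, fell by 0.62 in each genotype. The Hsf4 call in Acod1-/- cells (adjusted p = 0.0379) was lost by DESeq2 (0.0528), with the filter of at least 10 counts and without 3 of the 4 libraries in turn, and that in WT with only the compared groups fitted (0.0812) or without replicate 2 of PM or replicate 1 of OI+PM.

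Of 10 mitochondrial chaperone genes, 7 rose with OI in WT and 5 in Acod1-/- cells, against the same 21.3% and 13.9% of all genes. Hspa9, the mitochondrial HSP70, rose by 0.56 and 0.50, its exchange factor Grpel1 by 0.60 and 0.38, and its J-protein Dnaja3 by 0.36 and 0.28. With PM, edgeR called none of these 10 in either genotype, where it called 24.8% of all genes in WT and 23.9% in Acod1-/- cells. At an unadjusted p under 0.05 there were 3 in WT and 2 in Acod1-/- cells with PM, and DESeq2 called 1 and 0. Of 8 genes for the CCT chaperonin, 3 rose with OI in WT (Cct2, Cct3 and Cct4, named after their values were seen) and none passed edgeR's test in Acod1-/- cells, where 2 had an unadjusted p under 0.05 and DESeq2 called 1. With PM, edgeR and DESeq2 called none of these 8 in either genotype, with 1 at an unadjusted p under 0.05 in WT and 0 in Acod1-/- cells. Of the 10 genes on the list named small heat shock proteins, which were taken by gene name, only Hspb6 and Hspb11 passed the filter. For PM or OI, edgeR and DESeq2 called neither, with 1 at an unadjusted p under 0.05 (for PM in Acod1-/- cells). Over the alternatives the number that rose with OI in WT was between 2 and 7 for the J-domain genes, 1 and 8 for the HSP90 co-chaperones, 1 and 5 for the HSP70 and exchange factor genes, 1 and 10 for the mitochondrial chaperones and 0 and 7 for CCT. Each of these 5 lists was at its lowest with only the WT PM and WT OI+PM libraries in the fit, where 5.33% of all genes rose. In Acod1-/- cells the ranges for these lists, in the same order, were 2 to 6, 3 to 7, 1 to 4, 3 to 6 and 0 to 3. Hspb1, the gene of HSP27, was at or below 0.30 normalized CPM in all 12 libraries. Among all 8 lists, edgeR called 1 gene besides Dnajb4 between genotypes, the ER gene Dnajc3 in OI+PM cells (log2 0.28 ± 0.0549, adjusted p = 0.0183). DESeq2 also called 2 mitochondrial chaperone genes and 1 CCT gene lower in Acod1-/- cells there. Of all genes, edgeR called 1.83% in Control and 6.96% with OI+PM, and DESeq2 11.8% with OI+PM. These few calls are therefore not read as a result about the lists.

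**Figure D4:**
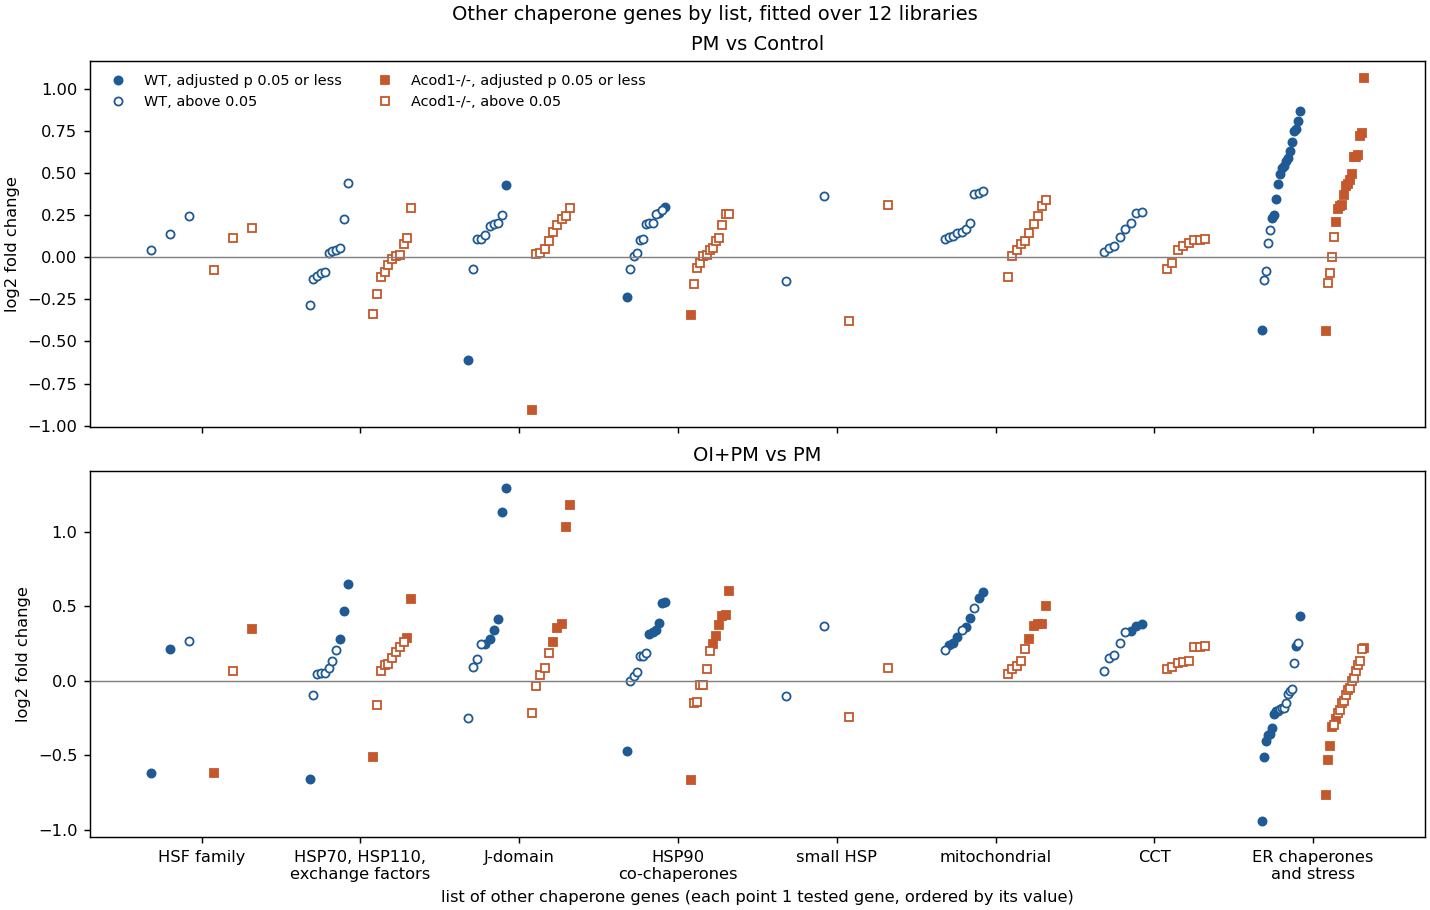
Log2 fold change of each tested gene in the 8 lists of other chaperone genes for PM against Control (top) and OI+PM against PM (bottom), in WT (circles) and Acod1-/- (squares); filled symbols have an adjusted p of 0.05 or less. The ER list lies mostly above 0 with PM, where 15 of 20 genes rose in each genotype, and mostly below 0 with OI, and the J-domain genes Dnajb2 and Dnajb4 lead the increases with OI.

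A mean profile of Hspa1a, Hspa1b, Hsph1, Dnajb1, Hsp90aa1 and Bag3 was taken from their standardized log2 levels over the 12 libraries. Their own Pearson correlations with it lay between 0.785 (Bag3) and 0.991 (Hsph1), with Hspa1a at 0.901. Those of the members left out lay between 0.385 (Hspa5) and 0.977 (Hsp90ab1), with Hspa8 at 0.934. The profile is therefore a mean that its own genes followed to differing degrees. The genes outside the 10 whose levels followed this profile most closely were Fam174a, Rnf115, Nampt, Zfp746 and Rnf128, with Pearson correlations of 0.993 to 0.989. As a description, 746 of 9577 genes had a correlation above 0.9 with this profile, and the 12 libraries share their treatments, so such likeness is common.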

How the data were processed

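Libraries were read single-end at 50 bp. The submitters' processing notes name FastQC 0.11.5, STAR 2.5.3a, Picard 2.9.0, featureCounts and the build GRCm38. The values they deposited are raw counts per gene, and how strand and multi-mapping reads were handled is not given in the sources used here. The members and lists were chosen with earlier results of these data known. Groups came from the deposited labels. Counts of all 12 libraries were fitted in edgeR 4.0.16 (R 4.3.3) with TMM scaling, 6 group means, the quasi-likelihood test and Benjamini-Hochberg adjustment, for genes with CPM above 1.5 in at least 2 libraries. Standard errors were taken as the ratio of |log2 fold change| to √F. The length correction, an alternative, fitted a lowess curve (span 0.3) of each library's deviations on exonic length as an offset. Named genes of a list are up to 3 called with OI in both genotypes in the same direction, with the largest change in WT. Their agreement between genotypes is therefore part of how they were picked. Also named are any called between genotypes, and for likeness the 5 closest genes of at least 5 CPM. Lengths and shared 50-base stretches came from the GENCODE vM21 annotation of GRCm38. Other alternatives were DESeq2 1.42.0, only the compared groups, RLE or total count scaling, filters, a replicate block (common, or one per genotype, added later), summed Hspa1 copies and leaving out each library.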

Additional observations from a re-analysis of the deposited data

How the results depend on the processing

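Over the alternatives for PM and for OI+PM, each of the 10 genes kept its direction, except Hsf1 with PM in WT, whose log2 fold change was between -0.0033 and 0.23 with 1 library left out. Asking also for a change of at least 2-fold left 2 of the 10 called for PM and for OI in each genotype, and 3 for OI+PM against Control. The filter in all 12 libraries removed Hspa1a and Hspa1b. Of the 8 genes left, 3 were called for PM in Acod1-/- cells, 2 higher and 1 lower (21.6% of all genes called). With only the compared groups fitted, 8 were called for PM in Acod1-/- cells (50.4% of all genes), 6 were called for OI in WT (17.3% of all genes), 3 between genotypes in Control (Bag3, Hspa1b and Hspa8, 20.6%) and 1 after PM (1.55%). Between genotypes, DESeq2 (3.87% and 11.8% of all genes) and the length correction (5.25% and 15.4%) each called 1 after PM and 1 with OI+PM, and the length correction with replicate block 1 (5.37%) and 2 (16.9%). Leaving out a library in turn gave 4 to 5 calls for PM in WT (10.6% to 30.7% of all genes), 3 to 4 in Acod1-/- cells (12.4% to 15.2%), 9 to 10 for OI in WT (32.6% to 60.3%), 8 in Acod1-/- cells (23.9% to 25.5%), 10 and 8 to 9 for OI+PM against Control (50% to 74.1% and 34.4% to 36.8%), 0 to 4 between genotypes with OI+PM (0.846% to 48.6%) and 0 to 1 for the OI interaction (0 to 4.68%).

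Total count scaling moved the median log2 fold change of all genes to -0.08 for PM in each genotype, to -0.11 and -0.07 for OI in WT and Acod1-/- cells and to -0.20 and -0.15 for OI+PM against Control. Of all genes called, 34.9% and 37.1% were then higher for PM (50.8% and 50.1% with TMM), 29.9% and 29.7% for OI (48.5% and 40.3%) and 30.9% and 28.4% for OI+PM against Control (51.3% and 45.9%). Under it the calls of Hsp90aa1 (WT) and Hsp90ab1 (Acod1-/-) with PM were lost as well, with adjusted p of 0.205 and 0.0972. Same-numbered libraries correlated in their deviations by 0.23, 0.24 and 0.73 between WT groups, between -0.09 and -0.04 between Acod1-/- groups and between -0.41 and 0.25 across genotypes, and the labels give only a number, so the numbers were not taken as pairs. The replicate block took Hsp90ab1 with PM in Acod1-/- cells to an adjusted p of 0.0536, leaving 5 calls there, and changed no other call of the 10 genes. A replicate block of its own in each genotype, added after the data were seen, called Hspa8 for PM in both genotypes (7 calls in each), 1 gene between genotypes after PM (Hspa1a, adjusted p = 0.0273) and 1 with OI+PM (Hsf1, 0.0291), with 41.1%, 35.9%, 4.45% and 23.9% of all genes called there. The causes were not tested. With 2 libraries a group, changes near 1.2-fold sit at the edge of detection, and Hspa1a and Hspa1b in Control rest on under 60 counts each.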
